A study of Mus musculus with 4 samples.

Results

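The 4 mouse ID genes, Id1, Id2, Id3 and Id4, were followed through single-cell RNA libraries of the embryonic ear region. They were chosen by name, and all 4 were found among the 32285 genes counted. The control embryos carried Pax2-Cre;Rosa26GFPf/+, a Cre recombinase driven by Pax2 and a Cre-dependent green reporter. The conditional knockout (cKO) embryos carried Pax2-Cre;Tbx2f/f;Tbx3f/f;Rosa26Gfpf/+, that is, the same driver and reporter with both alleles of the T-box genes Tbx2 and Tbx3 floxed. All were Swiss-Webster embryos at E10.5 with 34 to 36 somites. The otic vesicle, the cochleovestibular ganglion (CVG) and nearby neural tube and pharyngeal tissue were dissected, and GFP-positive, DAPI-negative cells were sorted. The sort was thus aimed at cells in which the Pax2 driver had been active. Cells with leukocyte and endothelium markers were also among those kept, and whether each kept cell had recombined was not measured. There were 2 control and 2 cKO libraries. The protocols name 3 control and 2 cKO embryos with pooled vesicles and do not say how embryos were divided among libraries, so the p-values reflect only how far these libraries differ from each other, a spread that may be technical. By its title, the series asks how the 2 T-box factors govern fate choices of otic vesicle cells.

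ID proteins are helix-loop-helix proteins that lack a basic DNA-binding region. They bind the E proteins, the common partners of tissue-specific basic helix-loop-helix (bHLH) factors, and thereby keep factors such as the neurogenins and NeuroD proteins from DNA. Id1, Id2 and Id3 are well-known targets of BMP signalling through SMAD proteins, and ID proteins are known to hold back hair cell formation in the cochlea. In the otic vesicle, cells that express Neurog1 leave the epithelium as neuroblasts and form the neurons of the CVG.

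Stretches upstream of the RefSeq start sites of Id2 and Id4 are shown. Each of these genes was lower in cKO at some of the stages, described below, where Id1 was higher. GGCGCC is marked because it is a core to which SMAD proteins of the BMP branch bind. The windows come from RefSeq on build GRCm38.p6 and hold the 250 bases before the annotated start. Entries were found for 3 of the 4 genes and not for Id1. Whether Id1 holds the same motifs could therefore not be looked at. Only bases outside GENCODE exons are printed. The RefSeq start of Id2 lies inside the longer GENCODE gene, so the Id2 stretch is intragenic, and the 161 bases of its window nearest to that start were exonic and are not shown. The Id4 window lies before the gene in both annotations. Capitals mark GGCGCC and the E-box CANNTG, the sequence that bHLH factors recognise. The Id2 stretch is chr12:25096254-25096342 on the minus strand, and the Id4 stretch is chr13:48260866-48261115 on the plus strand.
Id2: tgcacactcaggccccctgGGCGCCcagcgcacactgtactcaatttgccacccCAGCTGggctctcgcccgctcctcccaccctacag
Id4: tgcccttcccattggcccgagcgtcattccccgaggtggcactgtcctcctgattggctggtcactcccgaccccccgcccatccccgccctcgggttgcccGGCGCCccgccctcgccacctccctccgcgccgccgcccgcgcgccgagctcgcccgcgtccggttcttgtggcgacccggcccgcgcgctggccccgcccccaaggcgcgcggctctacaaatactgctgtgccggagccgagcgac
The GGCGCC of Id2 began 231 bases before the RefSeq start and that of Id4 148 bases before it. The E-box of Id2, CAGCTG, began 196 bases before the RefSeq start. The Id3 window held neither motif, but all 250 of its bases lie in GENCODE exons, so it is transcribed sequence in that annotation. Among 32851 promoter windows of this length, 9.6% held GGCGCC and 66.2% held CANNTG, on either strand (both motifs read the same on each). The base composition was 62.8% GC for Id2 and Id3 and 75.6% for Id4, against a median of 52.4% over all windows. A match is a description of the letters, not evidence of binding.

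In the mm10 annotation (GENCODE vM21) Id1 (ENSMUSG00000042745) lies on chromosome 2 at 152736251 to 152737410, plus strand. Id2 (ENSMUSG00000020644) lies on chromosome 12 at 25093799 to 25097140, minus strand. Id3 (ENSMUSG00000007872) lies on chromosome 4 at 136143497 to 136145755, plus strand. Id4 (ENSMUSG00000021379) lies on chromosome 13 at 48261228 to 48266026, plus strand, and is overlapped on the minus strand by A330033J07Rik and Gm49291. Whether counting used the strand is not given in the sources used here, so reads of Id4 and of these antisense genes may not have been told apart.

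The libraries held 106769747 to 128205192 UMIs (unique molecular identifiers, 1 per captured transcript), and 3220 to 3869 cells of each were kept. Median UMIs per kept cell were 28498 and 26970 in control 1 and 2 and 29784.5 and 30081 in cKO 1 and 2. The median mitochondrial share was 2.41% and 2.96% in control and 1.31% and 1.38% in cKO, so it moved with genotype, and its part in the Id results was not tested. Libraries shared 1 to 5 cell barcodes per pair. Cells were clustered without the Id genes, and clusters were called X-like from marker lists. In otic epithelium-like clusters, 8 to 12 of 14 otic markers stood out. Leukocyte-like cells, which stood at 4.37 to 21.5 CPM for Id1 and 0 to 1.25 CPM for Id4, were taken as a measure of free RNA. This is an assumption, since whether these cells make Id RNA themselves was not tested. CPM (counts per 1e+06) is scaled to the UMIs of the same cells. The assay tags transcript ends, so levels need no length correction, although capture may differ between genes. The targeted Tbx3 fell in otic epithelium-like cells (log2 change -1.47, edgeR adjusted p = 5.88e-05), as did Tbx2 (-0.34, adjusted p = 0.00551). In placodal sensory neuron-like cells Tbx3 fell (-1.62, edgeR adjusted p = 5.54e-05), whereas Tbx2 did not pass (0.27, adjusted p = 0.13). The deleted exons are not named, so these values say little about the deletion itself.

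The 4 genes were spread over the cell classes in different ways. Id3 was the most abundant of the 4 in otic cells and stood high in every non-neuronal class except leukocytes. Over the 4 libraries its mean was 949 CPM in neural tube progenitor-like cells (635 to 1464), 695 in endothelium-like cells, 643 in neural crest or glia-like cells, 568 in mesenchyme-like cells and 564 in otic epithelium-like cells (382 to 744). The ranges of these neighbours overlapped. Epibranchial and placodal sensory neuron-like cells followed at 126 and 125 CPM, then neural tube neuron-like cells at 18.3 and leukocyte-like cells at 7.69.

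Id1 took a similar path. Its highest means were 715 CPM in pharyngeal endoderm-like cells (537 to 1004) and 655 in neural tube progenitor-like cells (454 to 984). Placodal sensory neuron-like cells (344, from 94.3 to 579), otic epithelium-like cells (306, from 249 to 391), ectoderm-like cells (304, from 258 to 351) and mesenchyme-like cells (283, from 268 to 314) could not be ordered, since their ranges overlapped. In neural tube neuron-like cells Id1 stood at 1.82 to 17.4 CPM, no higher than in leukocyte-like cells.

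Id2 had the flattest profile. Its means ran from 425 CPM in pharyngeal endoderm-like cells through 275 in ectoderm-like, 271 in neural tube progenitor-like and 248 in otic epithelium-like cells to 58.7 in placodal sensory neuron-like and 14 in leukocyte-like cells. Unlike Id1 and Id3, it kept 52.4 to 122 CPM in neural tube neuron-like cells. Pharyngeal endoderm-like cells numbered only 5 in control 2, a library that was kept in the means and ranges given for this class. Neural crest or glia-like cells had few UMIs in 3 of 4 libraries.

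Id4 had the fewest UMIs of the 4 genes over all cells and stood highest in neural tube and epibranchial neurons. Neural tube neuron-like cells led with a mean of 88.2 CPM (64.4 to 119), followed by epibranchial neuron-like cells at 55.1 (21.0 to 82.2) and neural tube progenitor-like cells at 43.9 (34.6 to 50.4). Otic epithelium-like cells had 14.6 to 32.7 CPM, and placodal sensory neuron-like cells came only 7th with a mean of 8.88 (3.5 to 14.9). In neural tube neuron-like cells Id4 was level with Id2 (mean 88) and above Id1 and Id3. Mesenchyme-like, endothelium-like and leukocyte-like cells did not exceed 2.78 CPM in any library. Within the neural tube neuron-like class Id4 and Id2 parted. Cluster 20, led by En1 and Otp, had 87.6 to 206 CPM of Id4 and 19.2 to 28.2 of Id2, whereas cluster 24, led by Robo3 and Lamp5, had 7.39 to 19.4 CPM of Id4 and 119 to 249 of Id2. The clusters were formed on expression, so these differences are described and not tested.

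**Figure D1:**
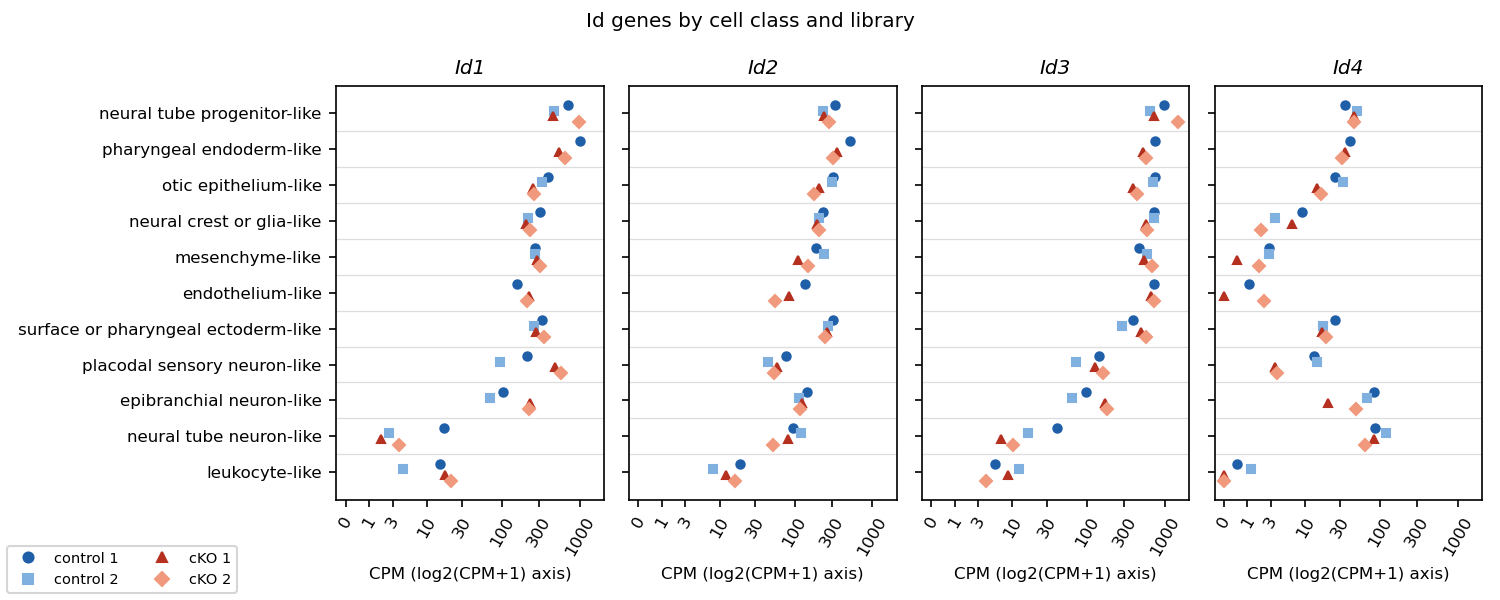
Levels of Id1, Id2, Id3 and Id4 (CPM on a log2(CPM+1) axis) in 11 cell classes, 1 point per library with at least 20 cells of the class. Id1 and Id3 fall to their lowest levels in neural tube neuron-like and leukocyte-like cells, while Id4 reaches its highest mean, 88.2 CPM, in neural tube neuron-like cells.

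In otic epithelium-like cells all 4 Id genes were lower in cKO, and Id3 lost the most UMIs. Id3 stood at 744 and 695 CPM in control 1 and 2, against 382 and 436 CPM in cKO 1 and 2. Id2 stood at 312 and 299 CPM in the controls against 206 and 177 in cKO. Id1 stood at 391 and 328 CPM in the controls against 249 and 258 in cKO. The control and cKO libraries did not overlap for any of these genes, as for 72.7% of all genes tested. Id4, with 25.2 and 32.7 CPM in the controls against 14.6 and 16.6 in cKO, showed the same order at a far lower level. The log2 changes were -0.65 for Id3 (SE 0.08, edgeR adjusted p = 0.000762), -0.51 for Id2 (SE 0.09, adjusted p = 0.00326), -0.72 for Id4 (SE 0.12, adjusted p = 0.00208) and -0.34 for Id1 (SE 0.10, adjusted p = 0.0240). In this comparison 40.5% of the 15357 genes tested were called, 20.9% with higher and 19.5% with lower levels in cKO, so single calls are common here. The Id1 call was lost without control 1 (log2 -0.18, adjusted p = 0.0758). Control and cKO otic cells lay mostly in different clusters (2, 5, 9, 10, 11 and 13 in control, 0, 4 and 12 in cKO), so a change within a cell type and a change of cell make-up cannot be told apart. The median UMIs of otic cells also moved with genotype (31530 and 29950 in control, 37390 and 34050 in cKO). Its part in the result was not tested.

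In the placodal sensory neuron-like class, which includes the CVG lineage, Id1 and Id4 moved in opposite directions. Id1 stood at 214 and 94.3 CPM in control 1 and 2, against 489.9 and 579 CPM in cKO 1 and 2. Id4 stood at 13.3 and 14.9 CPM in the controls against 3.5 and 3.81 in cKO. Neither gene overlapped between groups (72.5% of genes tested did not), and the control libraries differed 2.27-fold for Id1. Id1 rose by 1.92 on the log2 scale (SE 0.30, edgeR adjusted p = 0.00187), and Id4 fell by 1.81 (SE 0.17, adjusted p = 0.000198). The other 2 members did not pass. Id2 stood at 77.5 and 44.5 CPM in the controls against 58.4 and 54.5 in cKO (log2 0.01, SE 0.21, adjusted p = 0.971), and its sign turned to -0.11 when library size alone was used for scaling. Id3 stood at 143 and 71.0 CPM in the controls against 127 and 159.8 in cKO (log2 0.54, SE 0.26, adjusted p = 0.134). Both depended on a library: without control 1, Id2 and Id3 passed with log2 changes of 0.45 and 1.12, and without control 2, Id2 passed with -0.33. In this comparison 39.6% of 12993 genes were called, 19.6% higher and 20.1% lower in cKO. Cluster 6, the most neuronal, held 44.6% of control and 6.41% of cKO cells of this class, cluster 1 held 46.4% and 66.9%, and the Neurog1-led cluster 18 held 9.03% and 26.7%. Median UMIs were 25230 and 25560 in the controls against 35220 and 32200 in cKO.

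Within cluster 1, the only one with at least 10% of the class in both genotypes, the opposite moves of Id1 and Id4 were seen again. Id1 stood at 252 and 134 CPM in the controls against 517 and 622 in cKO (log2 1.65, SE 0.21, edgeR adjusted p = 0.000442). Id4 stood at 14.2 and 16.1 CPM in the controls against 1.99 and 2.03 in cKO (log2 -2.75, SE 0.22, adjusted p = 1.92e-05). There, 28.4% of genes were called. In cluster 18 only Id2 passed among the 4 (log2 -0.81, SE 0.21, adjusted p = 0.0127, with 13.9% of genes called). Its levels were 231 and 109 CPM in the controls against 91.9 and 95.1 in cKO. Id1 in cluster 18 stood at 534 and 264 CPM in the controls against 517 and 538.5 in cKO (log2 0.45, adjusted p = 0.113), and Id4 at 5.64 and 4.16 against 8.97 and 8.99 CPM (log2 0.86, adjusted p = 0.153).

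The genotype difference itself differed between the neuron and the otic class for each of the 4 genes, by the interaction term of a fit with the library as a block. The difference, neuron minus otic, was 2.36 for Id1 (SE 0.20, edgeR adjusted p = 1.88e-05), 1.27 for Id3 (SE 0.20, adjusted p = 0.00112), 0.58 for Id2 (SE 0.17, adjusted p = 0.0355) and -1.07 for Id4 (SE 0.16, adjusted p = 0.00091). Id4 alone had the negative sign. Of 15159 genes, 18.4% were called, 9.57% with a positive and 8.88% with a negative term. The Id2 term did not pass without cKO 1 (0.63, adjusted p = 0.0506) or without cKO 2 (0.53, adjusted p = 0.133).

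To compare the lineages at like maturity, otic and placodal neuron-like cells were divided into 6 stages by the log2 ratio of UMIs of 8 neuronal to 6 epithelial genes, none of them an Id gene. A stage is a range of this score, not a cell type, and 5.9% of the 9174 cells lay within 0.25 of an edge. Stage 1 was 97% otic class, stage 2 44.8% and stage 3 6.02%. The rest of stage 2 lay in cluster 18 (28.7%) and cluster 1 (26.5%). This mix was not counted per genotype. With the stage edges moved by 1, stage 2 held 54 and 55 control cells in place of 101 and 105. In cKO it then held 51 and 73 cells in place of 55 and 67. Cells near stage 2 were thus spread over the score differently in control and cKO. The part of the mix in the stage 2 results was not tested. Stages 3 and 4 lay mostly in cluster 1, and 74.6% of stage 6 in cluster 6. Epcam, which is among the 6 epithelial genes of the score, was at 746 to 893 CPM at stage 1 and 2.69 to 3.65 at stage 6. This fall follows from how the stages were cut and is no check of the score. At stage 4 Epcam stood at 99.6 and 76.6 CPM in the controls against 63.8 and 74.1 in cKO. The later genes Isl1 and Pou4f1 were not matched by the score. At stage 4 Isl1 stood at 543 and 628 CPM in the controls against 332 and 261 in cKO. At the same stage Pou4f1, a sensory neuron factor, stood at 98.0 and 97.3 CPM in the controls against 33.2 and 20.6 in cKO.

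In control, Id1 was highest at stage 2 and lower at each later stage. In cKO it was still above its stage 1 level at stage 5. At stage 2 Id1 stood at 630.2 and 390.3 CPM in the controls against 875 and 642 in cKO. At stage 4 it stood at 156 and 133 CPM in the controls against 505 and 761 in cKO. At stage 6 it stood at 53.9 and 31.2 CPM in the controls against 120.0 and 102 in cKO. The groups did not overlap at any of the 6 stages, with cKO below control at stage 1 and above it afterwards. The log2 change was -0.30 at stage 1 (edgeR adjusted p = 0.0423) and 0.73 at stage 2, 1.28 at stage 3, 2.18 at stage 4, 1.64 at stage 5 and 1.51 at stage 6, with adjusted p from 1.2e-05 to 0.00324 for these 5 stages. The share of all genes called was 40.2%, 15.9%, 8.36%, 11.6%, 6.32% and 17.5% from stage 1 to stage 6. The share called with a higher level was 20.7%, 9.33%, 4.31%, 6.24%, 2.88% and 9.98%, and with a lower level 19.5%, 6.61%, 4.05%, 5.32%, 3.44% and 7.55%. The Id1 call was lost at stage 1 without control 1 (log2 -0.13) or cKO 1 (-0.27), at stage 2 without control 2 (0.43), at stage 4 without control 2 (2.07, adjusted p = 0.0562) and at stage 6 without cKO 1 (1.39, adjusted p = 0.0624).

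Id3 began with Id1 and then parted from it. At stage 2, where Id1 rose, Id3 stood at 729.6 and 599 CPM in the controls against 301 and 179 in cKO. This was a fall of 1.31 on the log2 scale (SE 0.16, edgeR adjusted p = 6.14e-06). The part of the stage's mix of cells in it was not tested. At stage 4 the order of the groups was the other way round, with 97.1 and 108 CPM in the controls against 136 and 194 in cKO (log2 0.74, SE 0.15, adjusted p = 0.00989). At stage 3 Id3 passed without control 2 (-0.91) or cKO 2 (-0.80), and at stage 6 without control 2 (0.96) or cKO 2 (1.21). Stage 5 also passed with a higher level in cKO (log2 0.99, adjusted p = 0.0200), whereas stage 3 (-0.55, adjusted p = 0.126) and stage 6 (0.79, adjusted p = 0.0695) did not. The stage 4 call was lost without control 1 (0.66), control 2 (0.82) or cKO 2 (0.46), and the stage 5 call without cKO 1 (0.80, adjusted p = 0.204). At stage 1 Id3 fell by 0.67 (SE 0.09, adjusted p = 0.000899).

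Id2 was lower at stages 4 to 6 than at stage 1 in each library. At stage 2 it was already below its stage 1 level in both cKO libraries and in control 2, but not in control 1. What the stage 2 mix of cells adds to this was not tested. At stage 1 Id2 stood at 309.6 and 296 CPM in the controls against 200.3 and 174 in cKO. At stage 2 it stood at 338 and 244 in the controls against 135 and 80.4 in cKO. At stage 3 it stood at 159.7 and 125 CPM in the controls against 58.8 and 69.5 in cKO. These 3 stages passed, with log2 changes of -0.53, -1.28 and -1.10 (edgeR adjusted p = 0.0026, 3.36e-05 and 0.000484). From stage 4 on the libraries of the 2 groups overlapped, at 8.27 to 49.6 CPM, and no call was made, although stage 5 passed without control 2 (log2 -1.35).

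Id4 stood at 12.4 to 21.0 CPM in the controls from stage 2 to stage 6 and at 0 to 8.93 CPM in cKO. At stage 4 it stood at 19.9 and 20.7 CPM in the controls (49 and 43 UMIs) and 1.75 in each cKO library (4 UMIs each). At stage 5 control had 65 and 85 UMIs and cKO 1 and 0. At stage 6 control had 85 and 139 UMIs and cKO 1 and 2. The control to cKO ratio of CPM summed per group, with an exact interval for counting error only, was 11.6 (5.64 to 27.6) at stage 4, 72 (12.7 to 2.86e+03) at stage 5 and 14.3 (4.84 to 70.1) at stage 6. Stages 1, 3, 4, 5 and 6 passed in the fit, each with a lower level in cKO. The log2 change was -0.72 at stage 1 and -3.20 at stage 4 (edgeR adjusted p = 0.00198 and 0.000128). Stage 2 did not pass (log2 -1.06, adjusted p = 0.0544) except without cKO 2 (-1.77), and the stage 3 call (-1.56, adjusted p = 0.0253) was lost without any 1 of the 4 libraries (-1.75 to -1.40, adjusted p 0.0704 to 0.138).

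**Figure D2:**
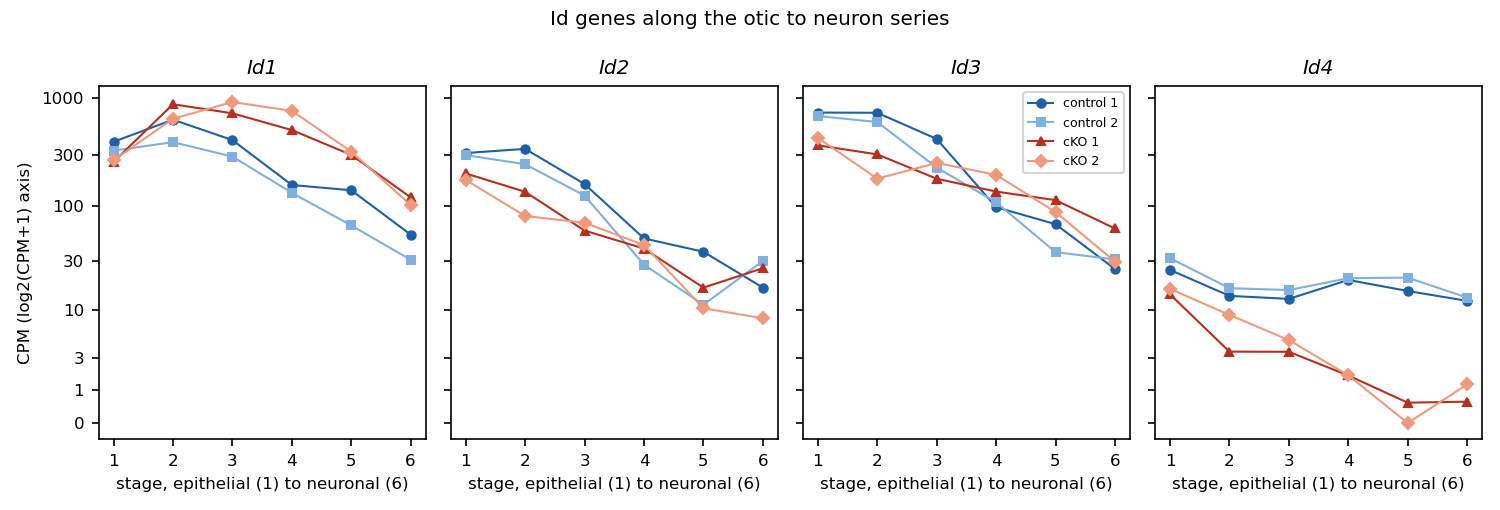
Level of each Id gene (CPM on a log2(CPM+1) axis) over 6 stages from epithelial to neuronal cells, 1 line per library. Id1 stays above control in cKO from stage 2 on, and Id2 lies below control in cKO at stages 1 to 3. Id3 changes the order of the groups between stages 2 and 4. Id4 reaches 0 to 1.27 CPM in cKO at stages 5 and 6 against 12.4 to 21.0 CPM in control.

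The balance of Id1 plus Id3 against Id2 plus Id4 put these moves in 1 number per library. At stage 1 the log2 ratio of their UMIs was 1.75 and 1.62 in the controls against 1.53 and 1.86 in cKO, so the groups overlapped. At stage 2 it was 1.95 and 1.92 in the controls against 3.08 and 3.20 in cKO. At stage 5 it was 1.98 and 1.66 in the controls against 4.57 and 5.28 in cKO. The controls lay between 1.62 and 2.31 through stage 5 and at 1.44 and 0.52 at stage 6, whereas both cKO libraries were highest at stage 5 and stood lower at stage 6 (2.78 and 3.79). The cKO minus control difference of means was 0.01, 1.2, 1.85, 2.1, 3.1 and 2.3 from stage 1 to stage 6. No test was made, since the smallest exact permutation p of 2 against 2 libraries is 1 in 3.

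Within the pairs the genes did not move together. At stage 2 the log2 ratio of Id1 to Id3 UMIs was -0.21 and -0.62 in the controls against 1.54 and 1.84 in cKO. Of all Id UMIs at that stage, Id1 made up 36.8% and 31.2% in control and 66.6% and 70.5% in cKO. Over the whole placodal neuron-like class its share was 47.7% and 42.0% in control and 72.2% and 72.6% in cKO. Id4 made up 15.6% of Id UMIs in control 2 and 5.98% in control 1 at stage 5, against 0.126% and 0% in cKO.

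**Figure D3:**
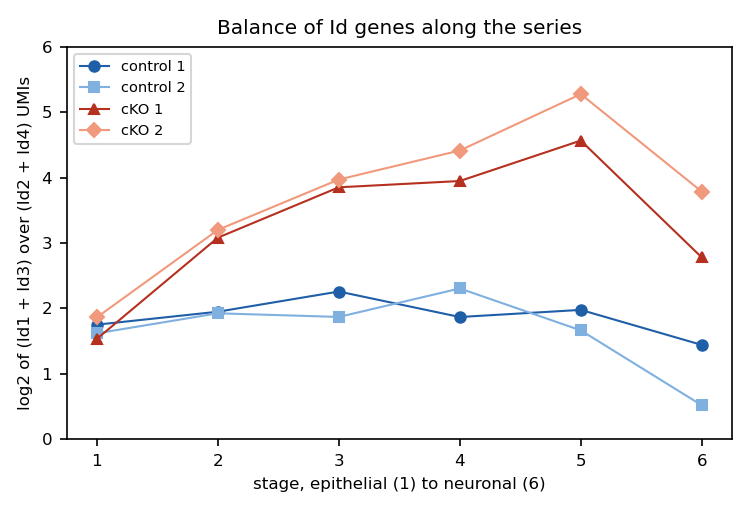
Log2 ratio of Id1 plus Id3 UMIs to Id2 plus Id4 UMIs per library over the 6 stages. The 4 libraries lie together at stage 1 (1.53 to 1.86) and apart by genotype at stage 2 and later, with the cKO libraries at 4.57 and 5.28 at stage 5.

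The same contrast was seen in the number of cells with a UMI, after each cell was thinned to 10000 UMIs to give all cells 1 depth. Id1 was found in 47.6% and 29.1% of placodal neuron-like cells in control 1 and 2 (622 and 707 cells) and in 79.5% and 80.9% in cKO 1 and 2 (303 and 367 cells). Unthinned, the shares of class placodal sensory neuron cells with Id1 were 64.9%, 47%, 87.9% and 92% in the same order. The Clopper-Pearson 95% interval of the thinned share was 25.8 to 32.6% for control 2 and 74.6 to 83.9% for cKO 1. In class leukocyte cells, Id1 had a UMI in 6 to 18.8% after thinning (median depth before it 37490 to 51390 UMIs), so the shares of the neuron class lay above that background. Id4 was found in 11.3% and 10.2% of placodal neuron-like cells in control and 1.98% and 3.00% in cKO. In leukocyte-like cells Id4 was found in 0 of 40 to 53 cells per library, which by the same method allows up to 6.72 to 8.81%, so the cKO shares cannot be told from background. Unthinned, Id4 was found in 21.5% and 20.9% of class placodal sensory neuron cells in control and in 9.27% and 8.04% in cKO.

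Cells that held Id1 without Id3 became common at stage 2 in cKO. They made up 13.6% and 13.4% of thinned control cells and 47.8% and 49.1% of cKO cells (88 and 82 against 46 and 55 cells). What the stage 2 mix of cells adds to this was not tested. Cells with UMIs of none of the 4 genes made up 20% and 37% of control cells and 5.36% and 7.94% of cKO cells at stage 4. At stage 6 they made up 51.4% and 59.1% in control and 38.6% and 37.5% in cKO. Cells with UMIs of all 4 genes were a smaller share in cKO in otic cells and at stage 2. They made up 16.1% and 17.2% of control and 6.40% and 6.97% of cKO cells in otic epithelium-like cells, and 4.55% and 13.4% of control and 0% and 1.82% of cKO cells at stage 2. In class otic epithelium cells Id3 had a UMI in 88.8% and 89% of control and 81.8% and 81% of cKO cells after thinning, and in 95.5%, 95.3%, 94.8% and 92% without it.

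Outside the otic and placodal classes, epibranchial neuron-like cells, the neurons of the facial, glossopharyngeal and vagal ganglia, also had more Id1 in cKO. Id1 stood at 103 and 71.1 CPM in the controls against 228 and 224 in cKO (log2 1.49, SE 0.16, edgeR adjusted p = 0.00314). Id3 stood at 95.4 and 63.7 CPM in the controls against 169 and 177 in cKO (log2 1.23, SE 0.17, adjusted p = 0.00559). Both genes rose, and 12.2% of the genes tested there were called higher and 13.2% lower (25.3% in all). Id1 also rose within cluster 8, led by Neurod4 and Neurog2 (log2 1.21, adjusted p = 0.00631, with 7.58% of genes called), and within cluster 14, led by Prph and Prox2 (0.88, adjusted p = 0.00102, with 11.4% called). Id3 rose in cluster 8 (0.92, adjusted p = 0.0129) and did not pass in cluster 14 (0.31, adjusted p = 0.23). Id4 passed in the whole class with a lower level (log2 -0.98, adjusted p = 0.0440), at 82.2 and 68.5 CPM in the controls against 21.0 and 48.6 in cKO, and in neither cluster. Its level was 62.3 to 114 CPM in cluster 14 and 3.34 to 5.39 CPM in cluster 8, and the clusters' shares of the class differed between the groups (57 and 141 cKO cells against 172 and 161 control cells in cluster 14). The Id4 class call was lost without control 1 (-0.84) or control 2 (-1.11).

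Single members passed in 3 more classes. In mesenchyme-like cells, where 5.76% of genes were called, Id2 stood at 190.2 and 239 CPM in the controls against 111 and 148 in cKO (log2 -0.62, SE 0.14, edgeR adjusted p = 0.0290). The call was lost without control 2 (-0.48) or cKO 1 (-0.40), and Id3 passed without cKO 1 (0.48). In neural tube neuron-like cells, where 5.31% were called, Id2 (log2 -0.64, adjusted p = 0.0341) and Id3 (-1.60, adjusted p = 0.0159) fell. Cluster 24, where Id2 stood higher than in cluster 20, held 36 of 87 and 55 of 132 control cells and 28 of 114 and 21 of 85 cKO cells of this class, and the part of this make-up in the falls was not tested. Id2 there was at 96.1 and 122 CPM in the controls against 81.4 and 52.4 in cKO, and its call was lost without control 2 (-0.44) or cKO 2 (-0.38). The Id3 call rests on 66 and 39 UMIs in control against 15 and 16 in cKO and was lost without control 1 (-0.92). Id4 there passed without control 1 (-0.62) or cKO 1 (-0.65). In ectoderm-like cells, where 5.71% were called, Id3 rose from 387 and 283 CPM in control to 492 and 562 in cKO (log2 0.70, SE 0.13, adjusted p = 0.0108), and the call was lost without cKO 2 (0.60, adjusted p = 0.0523).

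No member passed in neural tube progenitor-like (1.52% of genes called), neural crest or glia-like (0.136%) or leukocyte-like cells (2.97%), and Id4 had too few UMIs for a test in the last 2. Neural tube progenitor-like cells had the highest Id3 and a wide spread within cKO (721 and 1464 CPM), and it passed there without cKO 1 (log2 0.92). Over all kept cells, where 27% of genes were called, Id4 was the only member that passed, with 28.6 and 31.9 CPM in the controls against 16.1 and 19.3 in cKO (log2 -0.62, SE 0.11, edgeR adjusted p = 0.0168). It did not pass without control 2 (-0.54, adjusted p = 0.0876). Id1 over all cells (log2 0.24, adjusted p = 0.294) passed without control 1 (0.50, adjusted p = 0.0299).

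**Figure D4:**
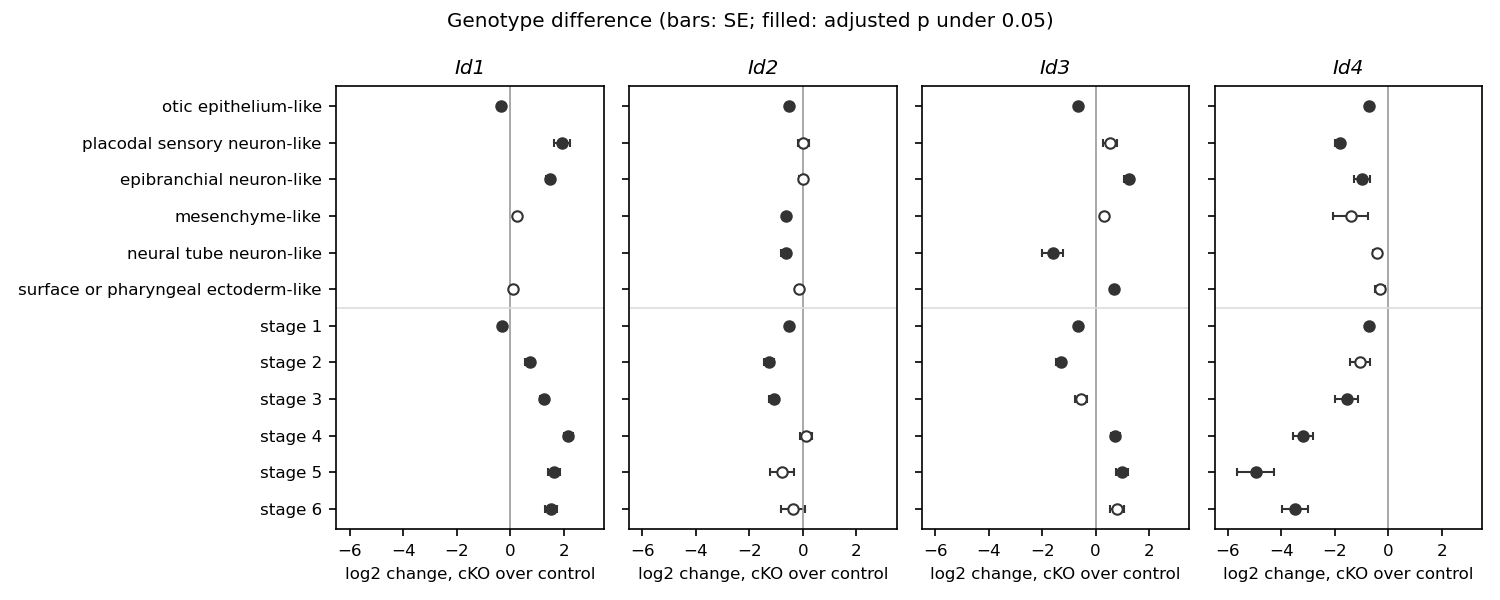
Log2 change of each Id gene, cKO over control, in 6 cell classes and in the 6 stages, with standard errors as bars; filled points have an edgeR adjusted p under 0.05. Id1 lies below 0 in otic epithelium-like cells and stage 1 and above 0 in both neuron classes of the ganglia and stages 2 to 6, while Id4 lies below 0 in the 6 classes and 6 stages shown.

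Among otic clusters of control embryos the levels of Id1, Id2 and Id3 went together, and Id4 ran against them. Clusters 9 and 13, whose leading genes include Oc90, had 1025 to 1225 CPM of Id3 and also 111 to 126 CPM of Bmp4, a BMP ligand. Clusters 2, 5 and 10 had 500.1 to 605 CPM of Id3 and 7.33 to 21.3 of Bmp4. Cluster 11, led by Filip1 and Tgfb2 and the highest in Neurog1 (57.6 and 36.4 CPM), stood between them with 933 and 822 CPM of Id3. Over the 7 control cluster means of log2(CPM+1), the correlation was 0.96 for Id1 with Id2, 0.90 for Id1 with Id3 and -0.93 for Id1 with Id4. The same cluster means correlated at 0.94 for Id3 with Bmp4 and 0.90 with Smad7, an inhibitory SMAD. The other BMP-responsive genes compared did not go with Id3 in this way. The values were 0.03 for Msx2, a homeobox gene, 0.10 for Msx1, 0.02 for Bambi and -0.29 for Smad6. These are descriptions over 7 points that share libraries, and they carry no test.

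Cluster 19, led by Col14a1 and Lrrtm1, set the Id genes apart from some other BMP-responsive genes. It held the most Msx2 of the otic clusters in control (222 and 261 CPM) and the most Bambi (326 and 303 CPM), yet the least Id1 (249 and 149.6), Id2 (148 and 109) and Id3 (445 and 404). Msx1 was also highest there among control means (134 CPM). Smad7, in contrast, had its lowest control mean there (34.2 CPM), as the 3 Id genes did, and Smad6 lay mid-range (9.37 CPM). Cluster 19 was also the only otic cluster with more than 3% of otic cells in both genotypes (4.72% of control, 3.57% of cKO). In it Id1 was higher in cKO, with 268 and 301 CPM (log2 0.60, SE 0.17, edgeR adjusted p = 0.0365), against the direction over the class. Id2 (-0.08, adjusted p = 0.795), Id3 (0.10, adjusted p = 0.572) and Id4 (-0.84, adjusted p = 0.0578) did not pass there, and 9.75% of genes were called. Of the cKO clusters, 12 had 589 and 679 CPM of Id3 and 65.2 and 76.6 of Bmp4, and cluster 4 had 278 and 328 of Id3 and 4.23 and 5.16 of Bmp4. The 23 cells of cKO 2 in cluster 11 had 801.9 CPM of Id3 and 55.4 of Bmp4, so the highest Id3 and the highest Bmp4 of cKO lay in different clusters.

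**Figure D5:**
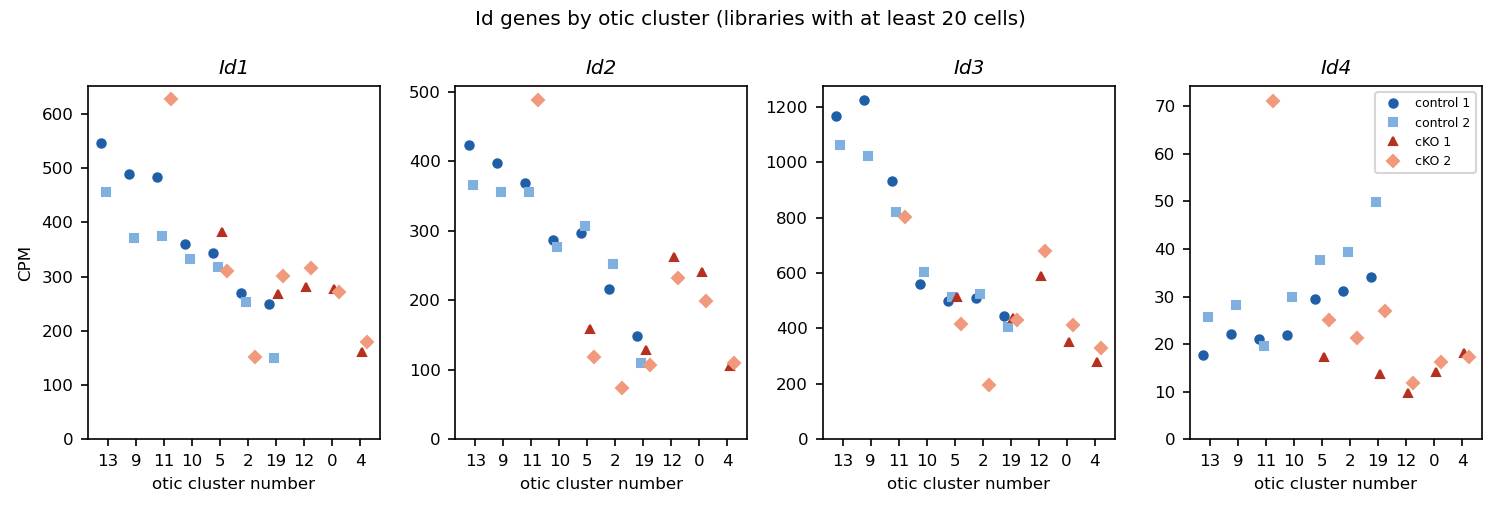
Levels of the Id genes (CPM) in 10 otic clusters, 1 point per library with at least 20 cells of the cluster; clusters 13 to 2 lie mostly in control, 19 in both genotypes, and 12, 0 and 4 in cKO. Id3 exceeds 1000 CPM only in control clusters 13 and 9, and Id4 in control is highest in cluster 19.

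Around the Id genes, the BMP lists in otic cells are given by counts, without a test of the lists. Over all genes there, 20.9% were called higher and 19.5% lower in cKO (40.5% in all), so called members are common in any list. Of 6 ligands 3 fell and 1 rose (median log2 change -0.18, against -0.02 over all genes tested). Bmp4 fell from 41.7 and 40.6 to 33.25 and 31.2 CPM, scaled by TMM factors as are all values for genes of these lists (log2 -0.35, edgeR adjusted p = 0.00477), and Bmp2 rose from a level under 2 CPM (log2 1.06). Of 6 receptors 4 fell and 1 rose (median -0.37), among them Bmpr2 (-0.62), Acvr2a (-0.53) and Bmpr1a (-0.40). Of 4 SMAD transducers Smad9 alone fell (-2.78, from 1.76 and 1.83 CPM). Of 8 measured antagonists and inhibitors 3 fell and 2 rose. Smad7 (-1.10), Bambi (-0.96) and Smad6 (-0.60), inhibitors within the cell or at its surface that BMP itself induces, fell, and the secreted antagonist Nog rose (2.17, from 0.706 and 1.08 to 4.87 and 3.28 CPM). Of 6 other BMP-responsive factors 5 fell and none rose (median -0.66), with Gata2 (-2.67), Gata3 (-1.26), Msx2 (-0.86) and Dlx5 (-0.47). Of 4 genes used to check counting, Actb, Gapdh and Rplp0 rose (median 0.54), and Eef1a1 did not pass. The same 3 rose in placodal neuron-like cells (median 0.49). These genes thus moved with genotype, and what this means for the Id changes was not tested.

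In placodal neuron-like cells the BMP lists held calls in both directions, with 39.6% of all genes called. Of 3 measured ligands Bmp7 rose (log2 1.49, edgeR adjusted p = 0.00285), of 6 receptors Bmpr2 (-0.92) and Acvr1 (-0.86) fell and Bmpr1b rose (0.79), and Smad1 fell (-0.80). Of 9 antagonists and inhibitors 3 rose and 2 fell. Nog (2.71) and Smad6 (1.48) were among those that rose, and Smad7 had a log2 change of -0.41 (adjusted p = 0.0565). Of 3 other BMP-responsive factors Gata3 rose (0.56). The median over all genes tested was -0.02.

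The E proteins, the partners that ID proteins bind, changed by less than 1.5-fold in both classes. Tcf3 rose from 90.6 and 90.05 to 119 and 124 CPM in otic cells (log2 0.43, edgeR adjusted p = 0.00194) and from 75.7 and 77.8 to 104 and 121 in neuron-like cells (0.55, adjusted p = 0.00275). Tcf12 fell in both (-0.28 and -0.31). Tcf4 fell in neuron-like cells (-0.35, adjusted p = 0.00882) and did not pass in otic cells (-0.19, adjusted p = 0.0747).

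In the list of proneural and neuronal factors, which holds bHLH genes and also Ebf1, Neurog1 moved apart from later ones over the whole neuron class. In neuron-like cells 6 of 8 measured genes of this list fell and 1 rose (median -0.83), where 20.1% of all genes were called lower and 19.6% higher. Neurog1, which starts the otic neuron lineage, rose from 52.0 and 59.3 to 209 and 196.5 CPM (log2 1.86, edgeR adjusted p = 2.02e-05). Nhlh1 (-1.27), Ebf1 (-1.11) and Neurod1 (-0.37), which act after it, fell in the class, whose most neuronal cluster 6 was the smaller in cKO. Within stages the picture differed. At stage 2, 3 of 5 rose and none fell, namely Neurog1 (1.56), Nhlh1 (1.04, edgeR adjusted p = 0.011) and Ebf1 (0.82, adjusted p = 0.000224). Over all genes at stage 2, 9.33% were called higher and 6.61% lower. At stage 3 Nhlh1 (0.02) and Ebf1 (-0.08) did not pass, while Neurod1 fell (-0.59, adjusted p = 0.000493). At stage 6 Nhlh1 (-0.84) and Ebf1 (-0.38) fell, and Neurod1 did not pass (0.03). In otic cells, where 20.9% of all genes were called higher and 19.5% lower, 2 of 8 rose, Ebf1 (1.2) and Neurog1 (1.06), and 2 fell. Of 6 HES and HEY genes, Notch-responsive bHLH repressors and Hes6, 4 rose and 1 fell in otic cells (median 0.59), and 5 rose in neuron-like cells (median 1.84), led by Hes5 (4.00). In stages 2, 3 and 4 all 5 measured HES and HEY genes rose, as did 3 of 6 at stage 5 and 2 of 3 at stage 6. Over all genes, 9.33%, 4.31%, 6.24%, 2.88% and 9.98% were called higher from stage 2 to stage 6. At stage 3 Hes5 stood at 0 and 4.45 CPM in the controls against 18.4 and 51.4 in cKO. Its place among the measured genes there rests on the cKO libraries. A link of these genes to the Id genes was not tested.

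Likeness of profile was measured over 36 sums (9 classes in 4 libraries, 8116 genes, Pearson correlation of log2(CPM+1)), without a test, since the sums share libraries and cell types. Nearest to Id1 were Gpx8 (0.93), Stxbp6 (0.93) and Immp1l (0.92), and Id3 was 8th (0.90). Nearest to Id3 were Sdc2 (0.94), Yap1 (0.94) and Stxbp6 (0.93). Nearest to Id2 were Dzip1l (0.93), Tjp1 (0.92) and Ptpn13 (0.91), with Id3 at 0.85 and Id1 at 0.66. Nearest to Id4 were Trim2 (0.95), Unc13b (0.94) and Dpysl5 (0.93), and its correlation with Id1 was -0.04. By this measure, over the 9 classes, Id1 and Id3 were close to each other, Id2 lay nearer to Id3 than to Id1, and Id4 was like none of the other 3. Endothelium-like and pharyngeal endoderm-like cells, with 19 and 5 cells in control 2, were left out. By mean level, endothelium-like cells came 8th of the classes for Id1 and 2nd for Id3. Pharyngeal endoderm-like cells came 1st for Id1 and 5th for Id3.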

How the data were processed

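Per the file headers, the deposited matrices hold raw UMI counts written by Cell Ranger 6.0.1; mm10, FastQC 0.11.4, Seurat 4.1.0 and Cell Ranger 3.1.0 are listed in the submitters' processing notes. Library kits, per the labels' protocols, were Chromium 3′ v3.1.

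Cells with at least 1000 genes and at most 10% mitochondrial UMIs were kept. Scrublet called 0 to 5 doublets per library by its own threshold, so the top-scoring 0.8% per 1000 barcodes were removed. For clustering (scanpy 1.11.5, leidenalg 0.10.2, resolution 1, 27 clusters), the 4 Id genes were taken out of 2000 variable genes before 30 principal components and 20 neighbours. A list qualified with 3 markers and 40% of its members at 10 CPM and 2-fold the level of the median cluster. Among qualifying lists the name came from the one with most markers among the cluster's leading genes. Ties went to lists other than the placodal one, whose markers other neurons share, then to the larger share; clusters 8 and 22, named epibranchial, support 9 of 12 placodal and 5 of 8 epibranchial markers. Cluster 21 met the bar of 4 classes and stayed unnamed (0.539 to 3.78% of a library). Naming was settled with the clusters in view.

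Counts were summed per library and class and tested with edgeR 4.0.16 (filterByExpr, TMM, quasi-likelihood, two-sided, prior count 1), adjusted by Benjamini-Hochberg over all genes at 0.05. The test was tried on simulated counts first. Named genes are the Id genes, Tbx2 and Tbx3, up to 4 per list by adjusted p in otic cells, and the 3 nearest profiles; others named (stage checks, otic cluster genes, further list members) were chosen after their values were seen. The members and lists were chosen with earlier results of these data known.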

Additional observations from a re-analysis of the deposited data

Results flagged for a closer look

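The genotype difference of each Id gene differed between placodal sensory neuron-like and otic epithelium-like cells by the interaction term (edgeR adjusted p from 1.88e-05 to 0.0355). The term, neuron minus otic, was 2.36 for Id1, 1.27 for Id3, 0.58 for Id2 and -1.07 for Id4. For Id1 the change was -0.34 in otic and 1.92 in neuron-like cells. For Id4 it was -0.72 and -1.81. The groups' clusters differ in both classes, and the part of cell make-up in these terms was not tested.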

How the results depend on the processing

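In otic cells the values of the 4 Id genes kept their direction and calls under the alternatives of scaling, filter, tool, doublets, depth and clustering; the planned limit to clusters with 10% of both genotypes could not be run, since no otic cluster qualified. Chosen after the data were seen, cluster 19 alone gave 0.60 for Id1, 0.10 for Id3, -0.08 for Id2 and -0.84 for Id4; cluster 18 of the neuron class gave 0.45, -0.81 and 0.86 for Id1, Id2 and Id4; cluster 8 gave 0.41 for Id4 and cluster 14 gave 0.31 for Id3 and -0.26 for Id4 in epibranchial cells. Neuron-class Id3 passed with no low-count filter (0.53). Over all cells Id2 passed with library size alone (-0.46), no filter (-0.34), DESeq2 (-0.30), no doublet removal (-0.31) and Id3 with library size alone (-0.40). Stage 1 Id1 was lost with RLE factors (-0.29) and stage 5 Id3 with library size alone (0.93), under which stage 2 Id4 passed (-1.21). The balance at stage 2 was 0.88 without doublet removal and 1.30 with stage edges moved by 1, and 2.46 at stage 4. The cKO minus control share with Id4 in neuron-like cells was -4.22 points at 5000 UMIs and -12.5 unthinned, and with Id3 in otic cells -16.5 and -2.0.

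With each library left out in turn (an arm of 1 is assumed to vary like the other), log2 changes were 0.02 to 0.50 (Id1) and -0.78 to -0.49 (Id4) over all cells; -0.48 to -0.18 for otic Id1; -0.33 to 0.45 and 0.13 to 1.12 for neuron Id2 and Id3; -1.69 to -0.54 for epibranchial Id4; -0.80 to -0.40 and 0.19 to 0.48 for mesenchyme Id2 and Id3; -1.03 to -0.38, -2.14 to -0.92 and -0.65 to -0.16 for neural tube neuron Id2, Id3 and Id4; -0.10 to 0.92 for progenitor Id3; and 0.53 to 0.95 for ectoderm Id3. By stage, Id1 ranged over -0.44 to -0.13 (1), 0.43 to 1.12 (2), 1.85 to 2.45 (4) and 1.14 to 1.89 (6); Id2 over -1.35 to 0.25 (5); Id3 over -0.91 to 0.01 (3), 0.46 to 0.98 (4), 0.65 to 1.45 (5) and 0.17 to 1.21 (6); Id4 over -1.77 to -0.59 (2) and -1.75 to -1.40 (3). The Id2 interaction ranged over 0.24 to 0.92.

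Replicate numbers are names here (correlation of same-numbered libraries -0.0719 over all cells, 0.0587 otic, -0.00318 neuron). With the number as a block, the count of genes called moved from 4679 to 3900 over all cells, 6214 to 6633 in otic and 5149 to 4570 in neuron-like cells; Id2 over all cells (-0.30), stage 2 Id4 (-1.10), stage 3 Id3 (-0.51) and stage 6 Id3 (0.76) passed, and no other call of an Id gene changed.

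The number of genes called depended on the libraries: over all cells 4679, 477 without control 2, 2444 without control 1, 3066 and 2527 without cKO 1 and 2, and 3104 without the 10% of cells with most UMIs; otic 6214, 4101 without control 2 and 1015 in cluster 19; neuron 5149, 2304 and 2332 without cKO 1 and 2, 3355 in cluster 1 and 1313 in cluster 18; interaction 2796, 1795 and 1561 without cKO 1 and 2. Library size alone moved the median log2 change to -0.18 (otic), -0.14 (neuron) and -0.15 (all), and the split of higher against lower calls from 3216 and 2998 to 1727 and 4963, from 2541 and 2608 to 1694 and 3479, and from 2564 and 2115 to 1162 and 3870. Few Id4 UMIs limit its stages 2 to 6.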
